A study of Brassica oleracea with 4 samples.

Results

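Jasmonate is a lipid-derived hormone that plants make when tissue is wounded or eaten by insects. It releases transcription factors such as MYC2 from their repressors, and these switch on storage proteins, protease inhibitors and the enzymes of glucosinolate defence, which is the characteristic chemical defence of broccoli and its relatives. In Arabidopsis, jasmonate and salicylic acid responses are known to restrain each other in many settings. The 6 genes described here are broccoli (Brassica oleracea) genes grouped as jasmonate and wound linked through their Arabidopsis matches. They are VSP2, OPR1, CYP79B2, BGLU18 and a pair of legume lectin genes that match the same Arabidopsis gene, AT3G16530. Only VSP2 and OPR1 fell in the list for jasmonate synthesis and response used below. A link of the lectins to jasmonate was not examined. The 6 genes were taken by identifier from a table of 135 genes. They had been chosen by their RPKM values in calcium and water sprayed seedlings, so those values are given as a description and carry no test.

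RNA was sequenced from hypocotyls, the embryonic stems below the seed leaves, of microgreens harvested at 10 days. The calcium group had been sprayed each day with calcium chloride at 10 mmol/L, and the water group with water alone. Both groups germinated in darkness on hydroponic pads and were then moved to a cycle of light and dark. The labels give 2 libraries per group, 4 in all, with no cultivar, and do not say whether the libraries came from separate trays or how many seedlings went into each.

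Each gene had 1 deposited value per group, in RPKM, a read count scaled to gene length and to the total of mapped reads. Values of single libraries and the number of reads behind each value were not part of the data, so no replicate spread, interval or test could be computed for any difference below. Every gene of the table differed by 2-fold or more, and the authors' deposited table gives none an adjusted p-value above 0.0423. It gives 41 of the 135 genes a value of 0. Of the 64 genes that were lower with calcium, 23 have a smaller value than any of the 6 genes. The sources used here do not name the test behind that p-value, so whether it covers the spread between libraries is unknown. Genomic positions were not analysed here, since the RefSeq gene table at hand holds none of the 6 identifiers. With genes of so selected a table, the hypocotyl label could not be checked against marker genes. An Arabidopsis match is given for 108 of the 135 genes and not for the other 27. A gene or list member called absent below was therefore only not found by match or annotation.

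All 6 genes were lower in calcium-sprayed hypocotyls, by 2.19-fold to 4.98-fold, with a median of 3.25-fold. A difference of at least 2-fold downwards was found in 64 of the 135 listed genes (47.4%). As the 6 genes were taken from this contrast, nothing is read from their count. The median log2 ratio of calcium to water was -1.70 over the 6 genes and 1.04 over all 135 listed genes. The latter value only reflects that 71 listed genes were higher and 64 lower, with none between the 2-fold limits. Within the 64 lower genes alone the median was -1.64, or 3.11-fold lower. The 6 genes thus had ratios of about the usual size for the lower genes of the table. In bulk RNA of this kind, fewer cells of a type and less RNA per cell cannot be told apart.

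**Figure D1:**
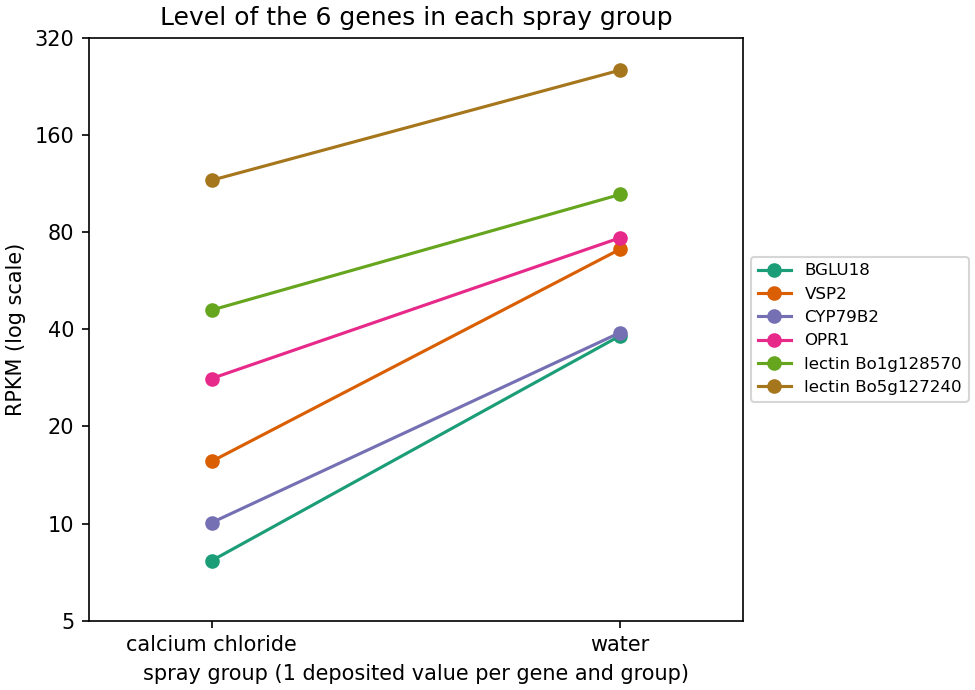
Deposited RPKM of the 6 genes (log scale) in the calcium chloride group and the water group, 1 point per gene and group, with a line joining the points of a gene. Every line is lower at calcium, and the lines of BGLU18 (7.67 against 38.2 RPKM) and VSP2 (15.6 against 70.8 RPKM) are the steepest.

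The genes nearest to the hormone itself were VSP2 and OPR1. VSP2 encodes a vegetative storage protein, an acid phosphatase with activity against insects, and in Arabidopsis it is the standard marker of the MYC2 branch of jasmonate signalling. VSP2 (Bo2g159220) was at 15.6 RPKM with calcium and 70.8 RPKM with water. That was 4.55-fold lower, a log2 ratio of -2.18, and 55.2 RPKM less with calcium. Its adjusted p in the authors' deposited table was 2.18e-06. Among the 64 lower genes VSP2 held rank 16 by the size of the ratio.

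A further gene of the table, Bo3g178190, carries the annotation of a HAD superfamily acid phosphatase of subfamily IIIB, the enzyme type to which vegetative storage proteins belong. It was named after its values had been seen. Its level was 12.4 RPKM with calcium and 44.0 RPKM with water, or 3.54-fold lower.

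OPR1 encodes a 12-oxophytodienoate reductase, an enzyme of the family that reduces oxylipins on the way to jasmonate. In Arabidopsis the main step of jasmonate synthesis is made by its relative OPR3, and OPR1 is a cytosolic enzyme whose part in it is minor. No gene of the table was matched to OPR3. OPR1 (Bo2g091100) was at 28.1 RPKM with calcium and 76.8 RPKM with water, 2.73-fold lower. Its adjusted p in the authors' deposited table was 0.000977. With water, OPR1 and VSP2 stood at similar levels per length, 76.8 and 70.8 RPKM. With calcium they stood apart, since OPR1 kept 36.6% of its water level and VSP2 kept 22.0%.

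Beyond VSP2 and OPR1, the list for jasmonate synthesis and response was made of 29 Arabidopsis genes, among them the lipoxygenases, allene oxide synthase and cyclases, the JAZ repressors, COI1 and MYC2, together with matching annotation words. No further gene of the table fell in it. The list does not cover every jasmonate response, since protease inhibitors were listed apart and defensin genes of the PDF1 family were in no list. The list genes that met no gene of the table were not analysed here, so the table does not show whether they differed between the sprays.

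Of the 6 genes, CYP79B2 stands for the glucosinolate side of defence. CYP79B2 is the cytochrome P450 that turns tryptophan into indole-3-acetaldoxime, the precursor of the indole glucosinolates and of the Arabidopsis phytoalexin camalexin. CYP79B2 (Bo7g118840) was at 10.1 RPKM with calcium and 39.1 RPKM with water, 3.88-fold lower. In the authors' deposited table its adjusted p of 0.0108 was the highest among the 6 genes. A list of 17 Arabidopsis genes of indole glucosinolate synthesis, breakdown and camalexin, which includes its close relative CYP79B3, the next enzyme CYP83B1 and the myrosinases, met no other gene of the table.

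BGLU18 encodes a beta glucosidase that in Arabidopsis releases abscisic acid from its glucose ester and is found in the ER bodies that wounding and jasmonate call forth in leaves. BGLU18 (Bo6g028090) was the lowest of the 6 genes with calcium, at 7.67 RPKM, against 38.2 RPKM with water. The difference of 4.98-fold was the largest ratio of the 6, a log2 ratio of -2.32. Its adjusted p in the authors' deposited table was 0.00238. It held rank 12 among the 64 lower genes. With water, BGLU18 and CYP79B2 were nearly level, at 38.2 and 39.1 RPKM.

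The list of beta glucosidases and ER body genes held 1 other gene of the table, and it lay on the opposite side. BGLU30 (Bo8g094910), annotated as a glycosyl hydrolase, was at 308 RPKM with calcium and 152 RPKM with water, 2.02-fold higher. No gene of the table matched the list for abscisic acid, the hormone that BGLU18 is known to release.

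The pair of lectin genes encode carbohydrate-binding proteins of the legume lectin family. They were the most abundant of the 6 genes and had the smallest ratios. Bo5g127240 was at 116 RPKM with calcium and 254 RPKM with water, 2.19-fold lower. Bo1g128570 was at 45.9 RPKM with calcium and 105 RPKM with water, 2.28-fold lower. Both thus lay close to the 2-fold limit of the table. Their adjusted p-values in the authors' deposited table were far apart, at 1.66e-09 for Bo5g127240 and 0.000902 for Bo1g128570, while their ratios were close. The more abundant gene also had the larger difference in RPKM, 138 less with calcium, against 58.8 less for the other.

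The lectin genes also kept nearly the same proportion to each other. Bo5g127240 was 2.52 times as abundant as Bo1g128570 with calcium and 2.43 times with water. Whether reads were shared or split between these related genes was not tested, so the level of each is uncertain to that extent. Their sum, 162 RPKM with calcium and 359 RPKM with water, was 2.22-fold lower.

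Set side by side, the 6 genes were ordered alike in both groups. From the most to the least abundant they were Bo5g127240, Bo1g128570, OPR1, VSP2, CYP79B2 and BGLU18. The range between the most and the least abundant was 15.1-fold with calcium and 6.65-fold with water. Without a spread between libraries it is not known which neighbours in that order differ. The summed level of the 6 genes was 223 RPKM with calcium and 584 RPKM with water, 2.62-fold lower. Of that sum the lectins made up 72.4% with calcium and 61.5% with water, so the sum is mainly a measure of the lectins. The other 4 genes summed to 61.5 RPKM with calcium and 225 RPKM with water, 3.66-fold lower.

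At least a 3-fold difference downwards was found in BGLU18, VSP2 and CYP79B2, and in 34 of the 135 listed genes (25.2%). The values that separate these 3 genes from the other 3 run from 3.88-fold for CYP79B2 to 2.73-fold for OPR1. Ratios over low values depend on what is added to both groups. With 5 RPKM added, the log2 ratio was -1.77 for BGLU18, -1.88 for VSP2 and -1.55 for CYP79B2, so VSP2 and BGLU18 changed places and CYP79B2 was under 3-fold at 2.92-fold lower. The lectin genes, with their higher levels, were at 2.14-fold and 2.16-fold lower under the same addition.

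**Figure D2:**
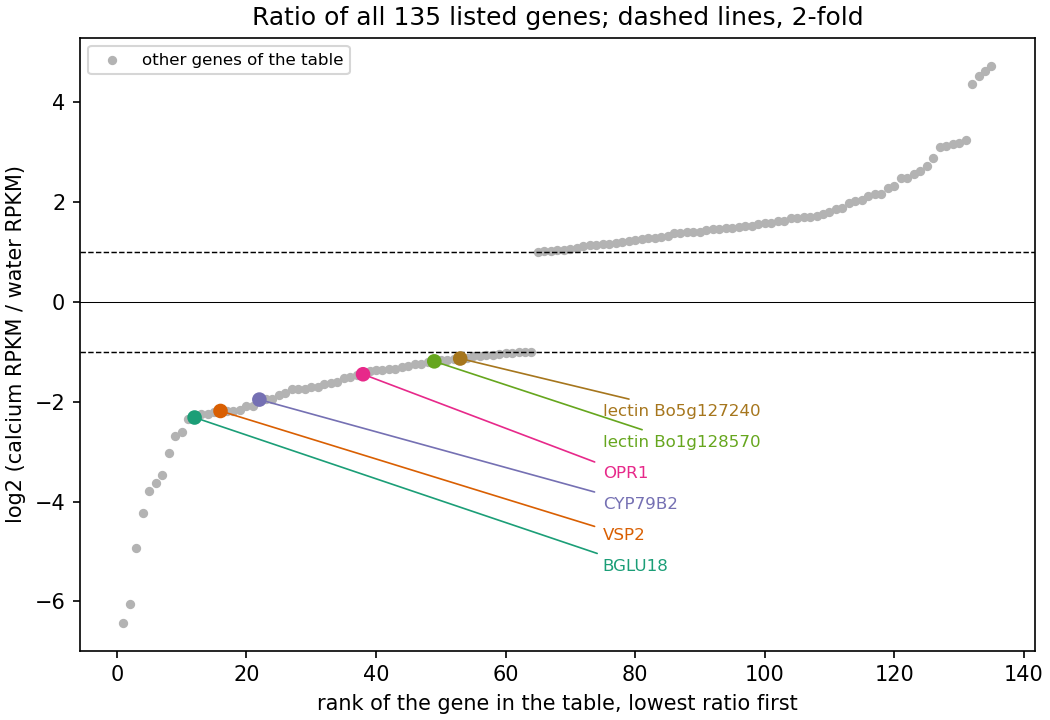
Log2 ratio of calcium to water RPKM for all 135 listed genes, ordered from the lowest to the highest ratio, with the 6 genes coloured and labelled and the 2-fold limits dashed. The 6 genes lie between -2.32 (BGLU18) and -1.13 (lectin Bo5g127240), while the lowest 8 genes of the table, which form cluster 2 of the deposited clustering, lie farther down.

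The authors' deposited table placed all 6 genes in its cluster 3, which holds 56 of the 135 genes (41.5%) and reaches 6.45-fold lower. The sources used here do not say how the clusters were made, so the cluster is not taken as evidence beyond the ratio. In level the 6 genes were somewhat below the lower genes as a whole, which include them. Their median was 21.9 RPKM with calcium and 73.8 RPKM with water, beside 28.9 and 92.0 RPKM for the 64 lower genes as a whole.

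The genes most like each of the 6 were found as the nearest other gene in the plane of log2 calcium RPKM and log2 water RPKM, a likeness over only 2 group values. CYP79B2 had the closest neighbour, a berberine family FAD-binding protein gene (Bo5g064310) at 10.5 RPKM with calcium and 38.3 RPKM with water. The neighbour of VSP2 was Bo5g131590, which has no annotation, at 16.3 RPKM with calcium and 68.9 RPKM with water. BGLU18 lay nearest to Bo7g084180, a homologue of TSO2, the small subunit of ribonucleotide reductase, at 8.92 RPKM with calcium and 40.5 RPKM with water. OPR1 lay nearest to the allantoinase gene ALN (Bo9g076560), an enzyme of purine breakdown, at 28.9 RPKM with calcium and 68.1 RPKM with water. For the lectins the nearest genes were OEP16-1 (Bo01765s010), a channel of the outer plastid envelope, at 44.6 RPKM with calcium and 91.0 RPKM with water, and the unannotated Bo9g028750, at 98.1 RPKM with calcium and 318 RPKM with water. The last was the loosest of these matches, with a ratio of 3.24-fold lower beside the 2.19-fold of its lectin.

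Protease inhibitors are a further class with wound and jasmonate induced members in many plants, and some of them block the digestive enzymes of insects. Their list was matched by annotation words only, and what its genes act on or respond to was not examined. With calcium, all 6 genes of that list in the table were lower, by 2.09-fold to 30.6-fold with a median of 5.35-fold, beside 64 lower genes of 135. The largest ratios were those of the Kunitz genes Bo00722s110, at 1.45 RPKM with calcium and 44.2 RPKM with water, Bo00722s060, at 15.2 RPKM with calcium and 167 RPKM with water, and Bo6g116730, at 18.0 RPKM with calcium and 109 RPKM with water. The 30.6-fold of Bo00722s110 rests on its low level with calcium, and it was 18.5-fold lower with 1 RPKM added to both groups and 7.63-fold lower with 5 RPKM added. For Bo00722s060 the ratio was 8.54-fold with 5 RPKM added, against 11.0-fold with none. The KTI1 homologue Bo6g116550, at 6.00 RPKM with calcium and 28.3 RPKM with water, was 4.71-fold lower, a ratio between those of VSP2 and BGLU18. The smallest ratio was that of the trypsin inhibitor gene TI1 (Bo4g019850), at 308 RPKM with calcium and 643 RPKM with water.

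Genes linked to salicylic acid, the hormone of defence against pathogens that live on living tissue, lay on the other side. All 7 listed genes were higher with calcium, from 2.25-fold upwards with a median of 4.15-fold, beside 71 of 135 listed genes that were at least 2-fold higher (52.6%). The marker PR1 (Bo3g088360) was at 30.5 RPKM with calcium and 6.85 RPKM with water. ICS1 (Bo6g086860), the isochorismate synthase that starts salicylic acid synthesis, was at 161 RPKM with calcium and 17.9 RPKM with water. The GH3 family gene Bo9g167830, whose Arabidopsis match acts in salicylic acid synthesis, was at 61.4 RPKM with calcium and 2.30 RPKM with water. These lists were drawn up with results of the same table known, so the opposite sides of the jasmonate linked and salicylic acid linked genes are a description of this table.

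**Figure D3:**
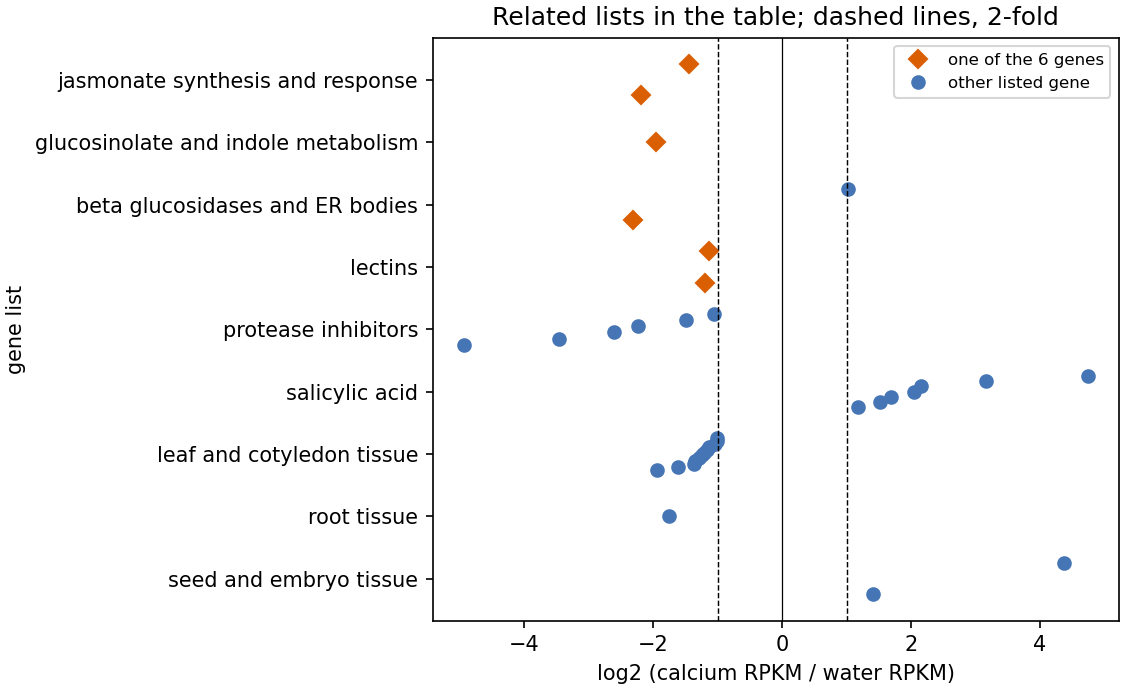
Log2 ratio of calcium to water RPKM for each listed gene found in the table, by gene list, with diamonds for the 6 genes and circles for the others. The protease inhibitors lie below 0 with the 6 genes, the salicylic acid genes and BGLU30 lie above 0, and no gene lies between the dashed 2-fold limits because the table holds none.

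Photosynthesis genes, used here as a leaf and cotyledon list, were also lower in the same samples. Whether they mark leaf tissue or green hypocotyl in these light-exposed seedlings was not tested. All 12 genes of the leaf and cotyledon list, which encode chlorophyll-binding proteins, a photosystem I subunit and the RuBisCO small subunit, were 2.01-fold to 3.83-fold lower in the calcium group, with a median of 2.35-fold, beside 64 lower genes of 135 (47.4%). Their summed level was 7147 RPKM with calcium and 15889 RPKM with water, 2.22-fold lower, and none was at 0 in either group. BGLU18, VSP2 and CYP79B2 had lower ratios than every gene of that list, CYP79B2 by a narrow margin (log2 ratio of -1.96 against -1.94). OPR1 and both lectins lay within its range. That range starts near the 2-fold limit of the table, so nothing is read from this overlap. The summed lectins and the summed genes of that list were both 2.22-fold lower. The part of leaf tissue in the differences of the 6 genes was not tested. The single gene of the table that met the root list, RGF9 (Bo2g166400), was at 16.2 RPKM with calcium and 54.3 RPKM with water. The words of the seed and embryo list met M17 (Bo4g190800), a late embryogenesis abundant protein gene at 50.1 RPKM with calcium and 2.42 RPKM with water. They also met Bo9g120390, at 376 RPKM with calcium and 142 RPKM with water, but only through the name of a superfamily that includes lipid transfer proteins, which does not mark it as a seed gene.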

How the data were processed

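Hypocotyl RNA was sequenced from calcium and water sprayed seedlings, in Illumina TruSeq libraries, as the labels' protocols state. The authors deposited 1 RPKM value per gene and group for 135 genes, per the file headers, and their control values were read as those of the water group, the remaining group of the labels. The submitters' processing notes name CASAVA. Not given in the sources used here are the aligner, genome build, annotation and way of combining libraries, so depth is unknown. The deposited log10 columns equalled the log10 of RPKM, and the deposited fold, a signed score that is negative where calcium is lower, equalled the ratio of RPKM values. The deposited adjusted p-value comes without its test.

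Ratios were computed from RPKM with no pseudocount, filter or test, since no library has its own value. The 6 genes and the 10 related lists were chosen with earlier results of these data known. The text names the 6 genes, the nearest other gene to each, and up to 3 others per list with the largest ratio; KTI1, TI1 and Bo3g178190 were named after their values were seen. Pseudocounts of 1 and 5 RPKM, a filter of 5 RPKM in both groups, a 3-fold limit and an adjusted p under 0.001 were tried. The code for the ratio and for matching the jasmonate list was checked with known ratios and matches put into the table. That tests the code only, and the matching of the other lists was not checked. Python 3.11.15, NumPy 2.4.6, pandas 2.3.3 and matplotlib 3.10.9 were used.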

Additional observations from a re-analysis of the deposited data

How the results depend on the processing

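The count of 6 lower genes was also 6 with 1 or 5 RPKM added, where the 64 lower genes of the table became 63 and 59. It was also 6 with the 5 RPKM filter, which left 59 of the 64. That filter could drop none of the 6 genes, as their lowest level was 7.67 RPKM. At a deposited adjusted p under 0.001 it was 4, where CYP79B2 and BGLU18 drop out, beside 44 of the 64. At the 3-fold limit it was 3 of the 6 genes and 34 of the 64 lower genes of the table. Adding the same amount to both groups cannot turn the direction of a ratio, so the pseudocounts were no check of direction. Settings for the related lists were added after seeing the data, and the filter left 1 of the 2 genes matched by the seed and embryo words, since M17 is under 5 RPKM with water. No paired analysis was possible because the table holds 1 value per group and no value per library. For the same reason no replicate could be left out, no library size could be checked, and limma was not run.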
